A study of Homo sapiens with 24 samples.

Results

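The genes described here are 78 nuclear genes named for proteins of the mitochondrial ribosome, taken from 20175 protein-coding genes of the annotation. Of them, 49 are named MRPL for the large subunit and 29 MRPS for the small subunit. Members were chosen by name: every protein-coding gene called MRPL or MRPS and a number, with or without a letter, and no pseudogenes or read-through genes. The splicing files hold 6324 rows on the strand and within the span of these genes, out of 1828222, and 1981 of them measure an exon–intron boundary. The mitochondrial ribosome translates the few mRNAs of the mitochondrial genome, which encode core subunits of the respiratory chain and the ATP synthase. Its RNAs come from the mitochondrial genome, but every one of its proteins is encoded in the nucleus, spliced by the nuclear spliceosome, translated in the cytosol and imported. Mutations in several of these genes cause inherited disorders of mitochondrial translation.

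RNA was measured in HCT116, a human colorectal carcinoma cell line, transduced with lentivirus that expresses WT PHF5A or PHF5A with cysteine in place of a tyrosine (Y36C). PHF5A is a small subunit of SF3b, the part of the U2 snRNP that recognises the branch point near the 3′ end of an intron, and E7107 is a pladienolide derivative that binds SF3b and inhibits splicing. Both lines keep their own PHF5A gene. There were 4 groups of 6 samples: WT PHF5A with DMSO, WT PHF5A with E7107, and the same pair of treatments with Y36C PHF5A. Treatment lasted 6 h. The sample labels give no dose, and nothing in them says whether the 6 samples of a group were separate cultures, so that p-values measure the spread between these samples, which may be technical. The introduced PHF5A is a cDNA without introns, and the files hold splice-site usage only, so that its level could not be checked here.

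The measurement is the percent spliced in (PSI), the share of reads at a splice site that use a given junction. At each site the rows add up to 100%, and the row for reads that run from the exon straight into the intron gives retention at that boundary. No read counts are in the files, so the depth behind a PSI is unknown. Of 637511 splice sites, the median number that had reads was 338114.5 in WT DMSO and 282962 in WT E7107, and 336964.5 and 330691.5 in the Y36C groups. Reads were present in every sample at the splice sites of the epithelial genes EPCAM, CDH1, KRT8, KRT18 and KRT19, at 2 or more of 4 sites of CDX2, at no more than 2 of 18 of LGALS4 and at none of VIL1. No reads were seen for PTPRC, CD3E, COL1A2, ALB and GFAP, which mark blood, connective tissue, liver and glia. A PSI does not tell a few cells with full retention from many cells with partial retention, nor does it measure how much of a transcript is present.

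The principal transcripts of the 78 genes contain 335 introns, and 332 of these begin with GT and end with AG. Of the introns, 321 lie within coding sequence and 14 in the 5′ UTR. The files list 668 boundaries of these introns, and all 668 had reads in all 24 samples, which left 333 introns measured at both ends. Below, the retention of an intron is the mean of its 2 boundaries. An annotated gene on the same strand overlaps 54 of the 335 introns and a gene on the opposite strand overlaps 68, and reads of such a gene can enter the boundary row. Whether the libraries kept the strand is not given in the sources used here.

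E7107 raised retention across most of the family in WT cells. Mean retention over the 668 boundaries was 2.46% ± 0.0881 (SD, n = 6) under DMSO and 11.2% ± 0.509 under E7107, and the 6 samples of each group ran from 2.35% to 2.61% and from 10.3% to 11.6%. In Y36C cells the same mean was 2.39% ± 0.0870 under DMSO and 3.80% ± 0.0448 under E7107, with ranges of 2.30% to 2.52% and 3.74% to 3.85%. The treated and untreated samples did not overlap in either genotype, while those of WT E7107 lay above those of Y36C E7107 throughout. Over all principal boundaries of protein-coding genes the means were 3.82% and 15.7% for WT cells and 3.69% and 5.71% for Y36C cells. In all 4 groups the mean of the family was the lower, a difference that was not tested.

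Of 766 boundary rows of the family that could be tested in WT cells, 444 increased and 22 decreased with E7107 (limma on the natural-log odds of the PSI, adjusted p of 0.05 or less). This is 58% of the family with an increase, where 43% of all 201184 boundary rows tested increased. A decrease was called for 2.87% of the family and 3.67% of all rows. The median change of the family's rows was 3.14 percentage points, or 0.90 in log odds. In Y36C cells 94 of 787 rows increased and 3 decreased, which is 11.9% and 0.381%, beside 8.76% and 0.351% of all 220825 rows. The median change there was 0.358 percentage points, or 0.14 in log odds.

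The difference between genotypes was tested by an interaction term on all 24 samples. At 365 of 752 boundary rows the signed change with E7107 was lower in Y36C than in WT cells, and at 36 higher. These are 48.5% and 4.79%, against 34% and 4.69% of all 202715 rows. A row that fell in WT cells and stayed level in Y36C cells counts as higher. Among 737 rows tested in both genotypes, 436 increased in WT and 93 in Y36C, with 65 shared. The shared rows are 14.9% of those that increased in WT and 69.9% of those that increased in Y36C, where over all 181127 boundary rows tested in both genotypes the shares were 12.6% and 57.7%. In 5 rows (0.678%) E7107 lowered retention in WT cells and raised it in Y36C cells, beside 0.501% of all. With a minimum change of 10 percentage points, 186 member rows increased in WT cells and 32 in Y36C cells. These are 24.3% and 4.07% of the family and lie below the shares of all boundary rows, 29.9% and 4.29%. At that size 4 rows decreased in WT cells (0.522%, beside 1.27% of all) and none did in Y36C cells (beside 0.138% of all). The signed change was lower in Y36C cells by that much at 159 rows (21.1%, beside 24.6% of all). The share of increases in the family was thus above that of all rows by the test alone, and below it once 10 points were required.

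Averaged over the boundaries of each gene, retention rose in 67 of 78 genes in WT cells and fell in 1, MRPL24. Over all 10380 protein-coding genes tested the shares were 68.9% and 9.23%, beside 85.9% and 1.28% of the family. In Y36C cells it rose in 43 genes, or 55.1% beside 43.4% of all genes. The other member genes did not pass the test in Y36C cells, where 0.626% of all genes fell. Required to change by 10 percentage points, the counts were 26 genes in WT and 1 in Y36C, MRPS34, or 33.3% and 1.28% of the family, which is below the 40.9% and 2.96% of all genes. Under DMSO no member gene exceeded 20% in either genotype, and with E7107 19 did so in WT cells and 2, MRPS34 and MRPS21, in Y36C cells. The share of all genes above 20% was not computed.

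**Figure D1:**
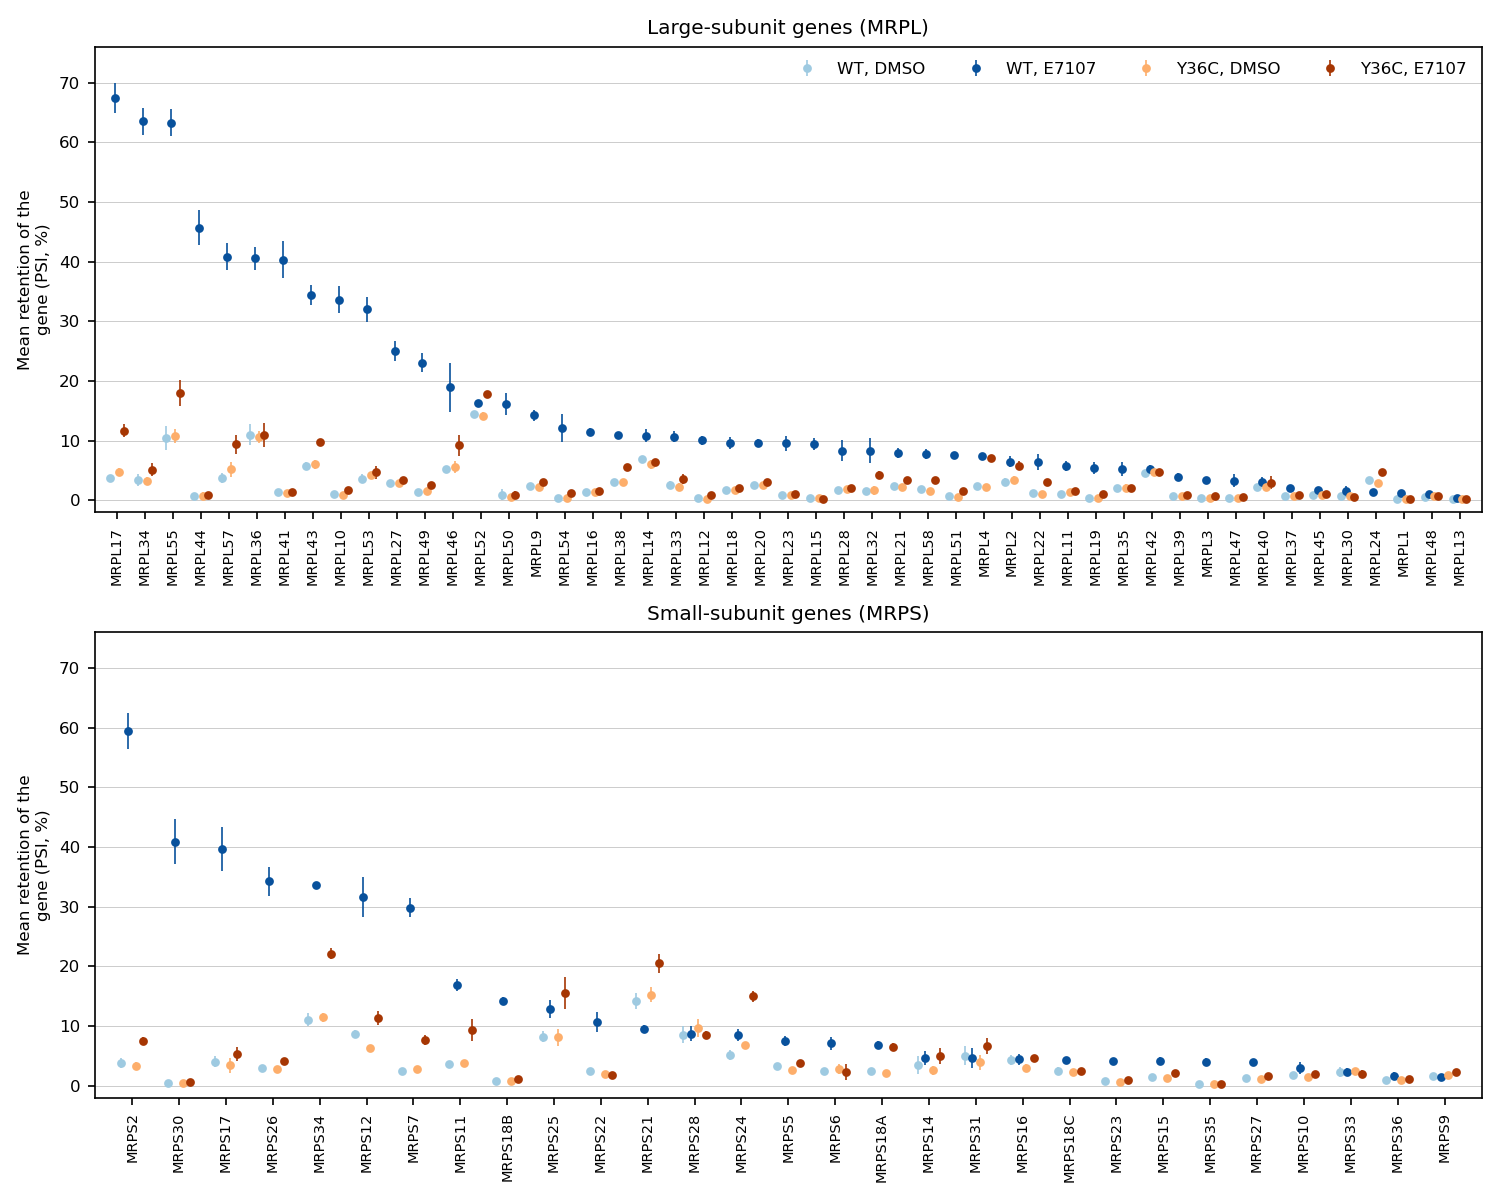
Mean retention of each of the 78 genes in percent (vertical axis), with large-subunit genes above and small-subunit genes below, ordered by the value in WT E7107. Points are means of 6 samples and bars are SD. WT E7107 lies far above the other groups at the left of both panels, up to 67.4% in MRPL17, and falls to the level of DMSO at the right, where MRPL13 reaches 0.454%.

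Of the 49 large-subunit genes, 46 rose in WT cells and 25 in Y36C cells, and the median of their gene means went from 1.74% to 9.54% in WT and from 1.66% to 2.55% in Y36C. Of the 29 small-subunit genes, 21 rose in WT and 18 in Y36C, and their medians went from 2.49% to 7.51% in WT cells and from 2.63% to 4.19% in Y36C cells. Genes are placed in a subunit by name alone, so MRPS30 and MRPS18A, whose proteins sit in the large subunit, count here with the small. The difference between the subunits was not tested. Over all 10380 genes the medians were 2.45% and 10.5% in WT and 2.26% and 3.33% in Y36C.

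The highest gene mean under E7107 in WT cells belonged to MRPL17, a large-subunit protein with 2 introns. Its 6 WT DMSO samples had a lowest, median and highest value of 2.97%, 3.92% and 4.13%, and the WT E7107 samples 63.9%, 67% and 70.4%. In Y36C cells it went from 3.63%, 5.04% and 5.21% to 10.4%, 11.4% and 13.1%. All treated samples were above all untreated ones in both genotypes, and the change in log odds was 3.85 ± 0.07 (SE, adjusted p = 6.47e-14) in WT and 0.63 ± 0.08 (adjusted p = 3.92e-05) in Y36C.

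MRPL34 is a short large-subunit protein with a bacterial counterpart, and its gene has 1 intron. Retention in WT cells went from a median of 3.16% (2.20% to 4.71%) to 63.9% (60% to 66.3%). In Y36C cells the medians were 3.33% and 5.34%, and the treated and untreated samples overlapped (gene-level change 0.43 ± 0.11, adjusted p = 0.00609). MRPL55, MRPS2 and MRPL44 followed, with WT E7107 medians of 63%, 59.7% and 46.6% and WT DMSO medians of 10.8%, 3.87% and 0.895%. MRPL44, which carries an RNase III-like fold and sits near the exit of the peptide tunnel, stayed in Y36C cells at medians of 0.559% and 0.861%, a change of 0.12 ± 0.11 in log odds (adjusted p = 0.438).

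At the other end stood MRPL13, MRPL48, MRPL1, MRPL24 and MRPS9, all with gene means of at most 1.46% in WT E7107. MRPL13, a counterpart of a bacterial large-subunit protein, had medians of 0.227% and 0.443% in WT (adjusted p = 0.0632). MRPL48 rose from 0.6% to 1.06% (adjusted p = 0.0232), and MRPS9 had 1.52% and 1.45% (adjusted p = 0.205). MRPL1 rose from 0.317% to 1.16% in WT (adjusted p = 0.000917). MRPL24 was the only gene that fell: its WT DMSO samples lay between 3.04% and 3.95% and its WT E7107 samples between 0.865% and 1.67%. In Y36C cells MRPL24 rose, from 2.61% to 3.39% under DMSO to 4.15% to 5.66% under E7107, and the interaction was 0.91 (adjusted p = 9.15e-09).

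For the gene mean, the signed change with E7107 was lower in Y36C than in WT cells for 60 genes, 76.9% of the family. It was higher for 5 genes, 6.41%, and the shares of all genes were 59.9% and 13.8%. The 5 were MRPL24, MRPS9, MRPS16, MRPS21 and MRPS25. MRPS24 and MRPL52 are counted among the 60 on the log-odds scale although their means in percentage points changed more in Y36C cells, by 4.77 and 1.93 points.

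Gene means in WT E7107 were also set against the number of introns. The 5 genes with 1 intron, MRPL34, MRPL36, MRPL41, MRPL50 and MRPL57, all rose, and their gene means ran from 16.1% to 63.5% with a median of 40.6%. The medians were 10.2% for the 16 genes with 2 introns, 11.5% for the 15 with 3 and 13.2% for the 10 with 4. They were 5.4% for 9 genes with 5 introns, 5.48% for 10 with 6, 4.06% for 5 with 7 and 7.37% for 3 with 8. The 2 genes with 9 introns had a median of 3.66% and the 2 with 10 had 2.69%, and MRPS5, with 11, had 7.51%. The medians thus did not fall steadily, and none of these differences was tested. By intron, the median change in WT was 10.6 percentage points in transcripts with 1 or 2 introns (37 introns), 9.31 in those with 3 or 4 (85), 2.09 in those with 5 to 8 (163) and 3.11 in those with 9 or more (48). Across all 92081 principal introns the 4 medians were 15.4, 5.56, 4.75 and 4.78 in the same order.

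Single introns reached higher values than the gene means. The 8 largest changes in WT cells fell in MRPL44, MRPL17, MRPS2, MRPL55 and MRPL34. MRPL44 intron 1 (GRCh37 chr2:224822369-224824250, plus strand, 1882 bases, 37.2% GC) changed most. Its lowest, median and highest retention was 0%, 0.848% and 3.23% in WT DMSO and 61.8%, 70.7% and 75.8% in WT E7107. The 6 Y36C DMSO samples had 0.35%, 0.885% and 3.8%, and the Y36C E7107 samples 0.898%, 1.63% and 2.27%. WT E7107 stood apart from the other 3 groups, which overlapped one another. At the 5′ boundary the change in log odds was 4.72 ± 0.22 in WT (adjusted p = 7.39e-09) and 0.58 ± 0.26 in Y36C (adjusted p = 0.263), with an interaction of -4.14 (adjusted p = 2.59e-09).

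MRPL17 intron 2 (chr11:6703634-6703977, minus strand, 344 bases) went from 1.11%, 1.68% and 2.57% to 64.2%, 66.1% and 73.3% in WT cells. In Y36C cells it stayed at 1.65%, 2.36% and 2.49% under DMSO and 1.83%, 2.74% and 3.59% under E7107. Intron 1 of the same gene (chr11:6704047-6704353, 307 bases) behaved otherwise in Y36C cells. It rose there from 4.76%, 7.72% and 8.27% to 18.9%, 20.2% and 22.8%, without overlap, and in WT cells from a median of 5.46% to 67.2%. The 2 introns of MRPL17 thus had near-equal retention in WT E7107 and means of 20.6% and 2.71% in Y36C E7107.

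MRPS2, a counterpart of a bacterial small-subunit protein, showed the same split between neighbouring introns to a lesser degree. Intron 2 (chr9:138392970-138393689) rose from a median of 2.93% to 67.3% in WT and from 2.73% to 10.8% in Y36C, without overlap in either. Intron 3 (chr9:138393820-138395387) rose from 6.74% to 67.2% in WT, and in Y36C its medians were 5.46% and 8.76% with overlapping ranges, where the 5′ boundary passed the test (adjusted p = 0.0186) and the 3′ boundary did not (adjusted p = 0.122). PIERCE1 lies opposite intron 2 and an unnamed gene opposite intron 3, and their part in these values was not tested. MRPL34 intron 1 (chr19:17416767-17416974, 208 bases) lies opposite ABHD8 and is the intron behind the gene values given above. MRPL55 intron 3 (chr1:228295571-228295935) went from 3.62% to 57.4% in WT and had medians of 3.80% and 4.67% in Y36C.

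MRPL55 intron 1, a 127-base intron in the 5′ UTR (chr1:228296723-228296849, minus strand, 69.3% GC), was among the 8 largest changes of both genotypes. The WT samples had 6.82%, 15.4% and 17.7% under DMSO and 60.6%, 75.6% and 84.6% under E7107. The Y36C samples had 7.99%, 16.3% and 20%, and then 27.6%, 30.9% and 44.6%. Treated samples lay above untreated ones in both genotypes and WT E7107 above Y36C E7107, all without overlap. In Y36C the 3′ boundary passed the test (1.28 ± 0.22, adjusted p = 0.00352) and the 5′ boundary did not (0.65 ± 0.21, adjusted p = 0.0889).

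The sequences of introns with a large change in WT cells and no boundary that passed the test in Y36C cells are shown for the part that SF3b works on, the last 100 bases before the next exon, with the terminal AG in capitals. MRPL34 intron 1 is short enough to be shown whole, with its GT and AG in capitals. The mean of its boundaries did pass the test at the gene level in Y36C cells, as given above. All are from GRCh37, on the strand of the transcript.
MRPL44 intron 1, chr2:224824151-224824250: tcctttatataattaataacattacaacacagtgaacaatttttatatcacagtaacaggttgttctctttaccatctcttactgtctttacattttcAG
MRPL17 intron 2, chr11:6703634-6703733: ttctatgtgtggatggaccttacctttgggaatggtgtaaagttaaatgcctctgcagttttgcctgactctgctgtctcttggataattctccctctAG
MRPS30 intron 1, chr5:44811011-44811110: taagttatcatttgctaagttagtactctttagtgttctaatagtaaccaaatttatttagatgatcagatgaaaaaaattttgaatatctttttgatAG
MRPL34 intron 1, chr19:17416767-17416974: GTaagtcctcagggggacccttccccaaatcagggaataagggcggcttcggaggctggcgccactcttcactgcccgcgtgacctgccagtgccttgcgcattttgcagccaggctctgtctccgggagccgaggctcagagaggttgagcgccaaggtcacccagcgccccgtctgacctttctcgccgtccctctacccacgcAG
The 3 intron ends differ in composition, with 28% GC in MRPL44, 44% in MRPL17 and 23% in MRPS30. The share of C and T in the 30 bases before the AG was 80%, 76.7% and 46.7%, and 76.7% in MRPL34.

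Boundaries with the largest negative interaction were the 5′ boundary of MRPS30 intron 1 and the 3′ boundaries of MRPL44 introns 1 and 3, MRPL36 intron 1 and MRPL55 intron 4. MRPS30, named for the small subunit but placed in the large subunit by structures of the ribosome, had the largest. Its boundary went from 0%, 0.841% and 1.23% to 69.4%, 70.2% and 74.5% in WT, and in Y36C from 0%, 0.761% and 1.18% to 0%, 0.214% and 0.962%. The interaction was -5.25 ± 0.21 (adjusted p = 1.02e-14). MRPL36, the counterpart of a very short bacterial ribosomal protein, went at its 3′ boundary from a median of 0% to 48.8% in WT, and its Y36C medians were 0.848% and 0%. The mean of both boundaries of this intron had medians of 11.5% and 40.1% in WT and 10.6% and 10.9% in Y36C, DMSO first. Its 5′ boundary was therefore well above 0% in every group.

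**Figure D2:**
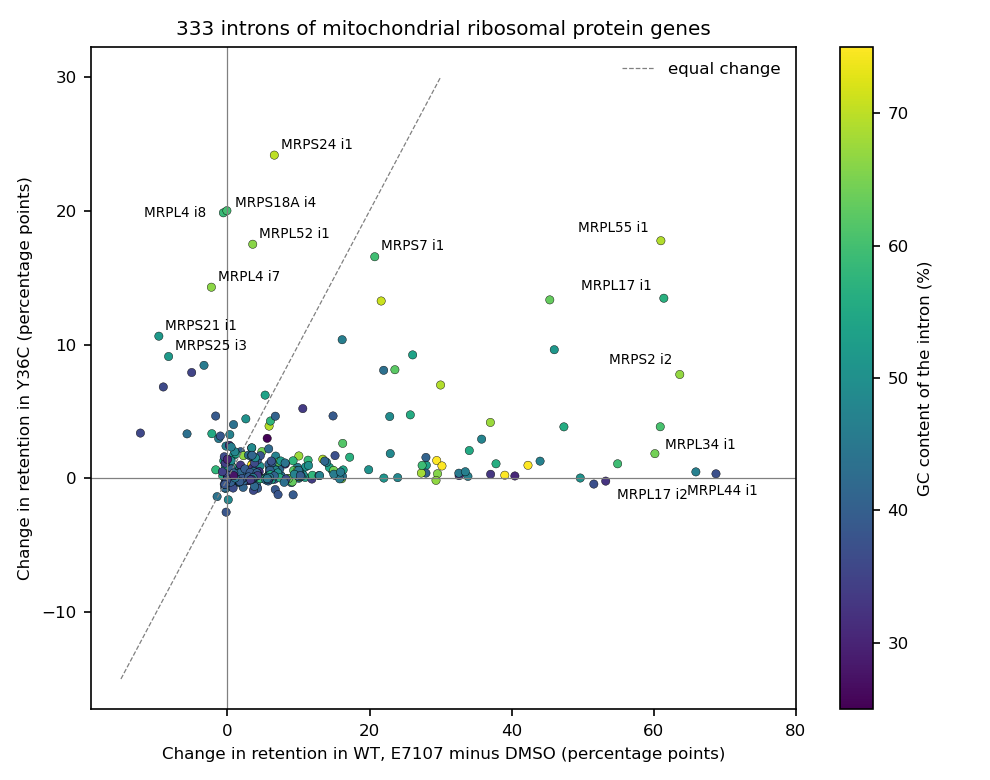
Change in retention with E7107 in WT (horizontal axis) and in Y36C cells (vertical axis), in percentage points, for the 333 introns read at both ends, each a point coloured by its GC content. The dashed line marks equal change, i1 stands for intron 1, and most points lie below the line near a Y36C change of 0, with a small set above it led by MRPS24 intron 1.

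A smaller set of introns was retained in Y36C cells and little or not in WT cells. MRPS24, the counterpart of a bacterial small-subunit protein, held the largest Y36C change in its intron 1 (chr7:43908976-43909055, minus strand, 80 bases, 70% GC). Its WT samples had 11.8%, 14.6% and 17.1% under DMSO and 17.3%, 20.3% and 26.1% under E7107. The Y36C samples had 17.5%, 19.3% and 21.3%, and then 38.4%, 44% and 45.6%. Groups rose without overlap in the order WT DMSO, WT E7107 and Y36C E7107, and Y36C DMSO lay above WT DMSO and overlapped WT E7107. Neither boundary passed the test between genotypes under DMSO (adjusted p = 0.762 and 0.579). At the 3′ boundary the change was 0.42 ± 0.12 in WT (adjusted p = 0.0191) and 1.15 ± 0.09 in Y36C (adjusted p = 1.63e-05), with an interaction of 0.74 ± 0.13 (adjusted p = 0.000137). The read-through gene URGCP-MRPS24 shares this intron, and the gene mean of MRPS24 was also the only 1 of the family to differ between genotypes under DMSO (0.19 in log odds, adjusted p = 0.0487), which is 1.28% of the family beside 0.241% of all genes that were higher and 0.289% that were lower in Y36C. This call was lost in every alternative tried, with an offset of 0.1 or 5, PSI as the response, the replicate block, a minimum change of 10 points or all boundary rows in the span. With PSI as the response 1 other member gene was lower in Y36C than in WT cells under DMSO, beside 63 of all 10380 genes.

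MRPS18A is named for the small subunit, and its protein is found in the large subunit. Its intron 4 (chr6:43643009-43643230, minus strand, 222 bases, 59.9% GC) had 6.87%, 9.65% and 11.7% in WT DMSO and 5.28%, 9.51% and 13% in WT E7107. In Y36C cells it went from 6.74%, 9.39% and 11.3% to 26.7%, 29.1% and 32.2%. The 3 groups other than Y36C E7107 overlapped fully, and the interaction at the 5′ boundary was 1.59 ± 0.34 (adjusted p = 0.00108).

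MRPL4, which lines the peptide exit tunnel, held 2 such introns next to each other. Intron 8 (chr19:10369362-10370292, plus strand, 931 bases) had medians of 5.91% and 5.38% in WT, and went in Y36C from 4.98%, 5.53% and 5.76% to 24.6%, 25.1% and 26.4%. The 5′ boundary of intron 8 alone reached 43.5% in Y36C E7107 (41.6% to 45.6%), with an interaction of 1.98 ± 0.11 (adjusted p = 2.09e-12). The mean of both ends was far lower, so the rise lay mainly at the 5′ boundary, although both boundaries passed the test in Y36C. How often the whole intron is retained cannot be told from these values. Intron 7 (chr19:10369199-10369284, 86 bases, 66.3% GC) went from 6.28%, 7.64% and 9.48% to 20.5%, 22% and 23.1% in Y36C. In WT it went the other way, from 6.75%, 7.44% and 10% to 4.61%, 6.08% and 6.44%, and the fall passed the test at the 5′ boundary (adjusted p = 0.0214) but not at the 3′ boundary (adjusted p = 0.112). The gene LIMASI is annotated on the opposite strand of both introns.

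MRPL52 intron 1 (chr14:23299150-23299261, 112 bases, 66.1% GC) was high in every group, at medians of 47.4% and 51.2% for WT cells and 45.6% and 63.7% for Y36C cells. Both boundaries rose in Y36C (adjusted p = 4.96e-05 and 0.000108), and in WT the 5′ boundary did (adjusted p = 0.00613) and the 3′ boundary did not pass the test (adjusted p = 0.894). MRPS7 intron 1 (chr17:73258065-73258577, opposite GGA3) is the exception in this set. It rose to nearly the same level in both genotypes, from 6.41% to 27.7% in WT and from 8.61% to 25.8% in Y36C, and the treated groups overlapped. Its interaction was -0.24 ± 0.16 at the 5′ boundary (adjusted p = 0.369) and -0.50 ± 0.15 at the 3′ boundary (adjusted p = 0.0143).

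Some of the short introns retained in Y36C cells are printed whole, with GT and AG in capitals. MRPL4 intron 8, which rose mainly at its 5′ boundary, is shown by its last 100 bases. They can be set beside those retained in WT cells. Other short introns retained in Y36C cells are not shown, such as those numbered 1 in MRPL52, MRPL55 and MRPL22. The last has 78 bases and 46.2% GC.
MRPS24 intron 1, chr7:43908976-43909055: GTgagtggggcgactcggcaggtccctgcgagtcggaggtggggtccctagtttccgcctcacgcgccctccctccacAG
MRPL4 intron 7, chr19:10369199-10369284: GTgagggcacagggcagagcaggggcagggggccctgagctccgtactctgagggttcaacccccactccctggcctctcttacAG
MRPS18A intron 4, chr6:43643009-43643230: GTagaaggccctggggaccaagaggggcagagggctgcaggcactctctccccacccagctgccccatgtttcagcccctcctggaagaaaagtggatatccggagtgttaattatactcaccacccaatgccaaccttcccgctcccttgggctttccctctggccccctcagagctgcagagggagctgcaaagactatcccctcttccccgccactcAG
MRPL4 intron 8, chr19:10370193-10370292: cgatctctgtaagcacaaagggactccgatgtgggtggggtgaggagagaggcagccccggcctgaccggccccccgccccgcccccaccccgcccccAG
The last 100 bases of MRPL4 intron 8 are 73% GC, and the C and T share of the 30 bases before the AG was between 70% and 80% in all 4.

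**Figure D3:**
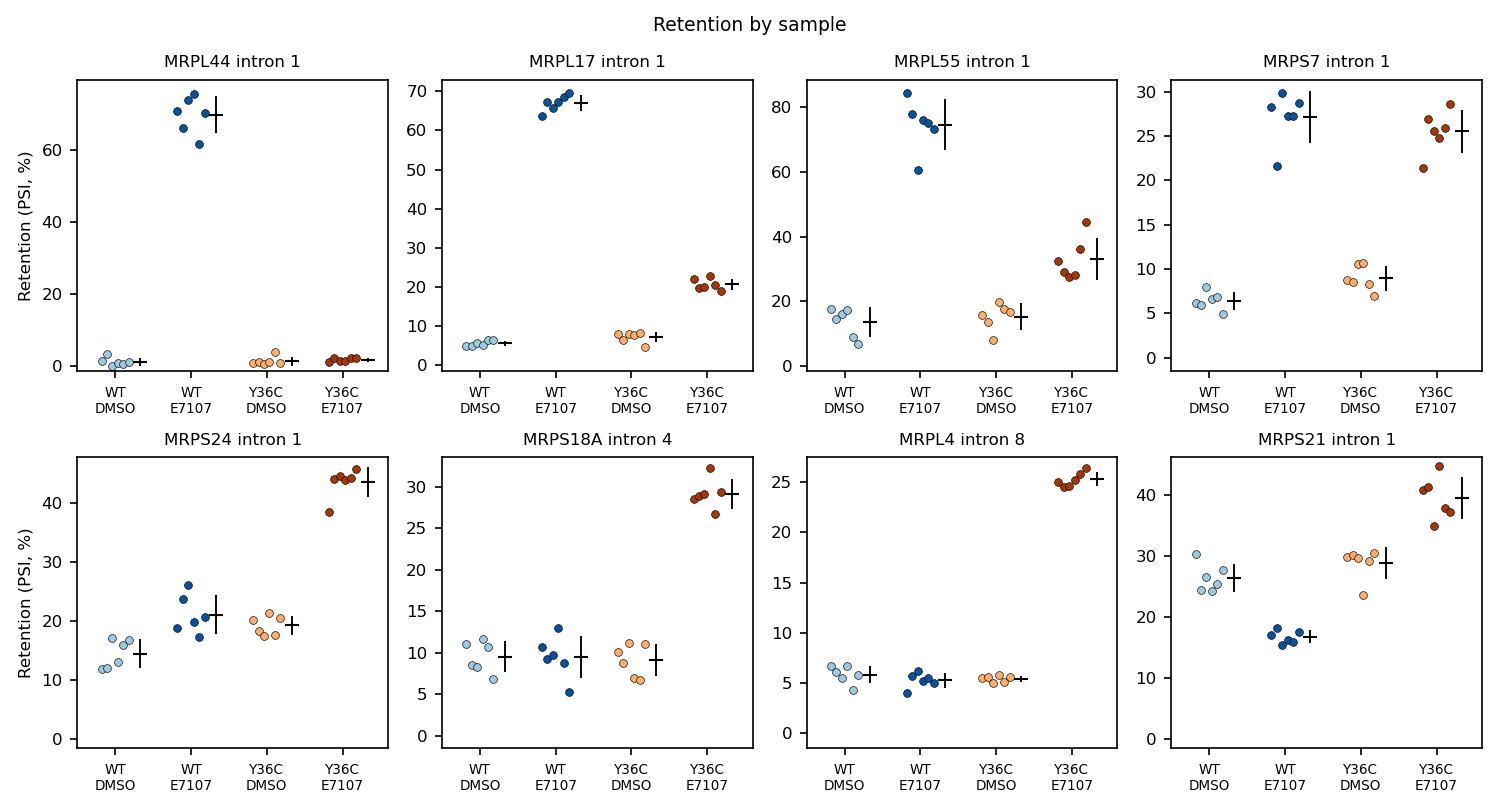
Retention of 8 introns in percent (vertical axis, its own scale in each panel), 1 point per sample and a bar for the mean and SD of 6 samples in each of the 4 groups. MRPL44 intron 1 is high in WT E7107 alone, MRPS7 intron 1 in both treated groups, and MRPS18A intron 4 and MRPL4 intron 8 in Y36C E7107 alone. The rise in MRPL4 intron 8 lay mainly at its 5′ boundary.

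Retention also fell in some introns of WT cells. MRPS5 intron 7 (chr2:95767469-95770384, minus strand) had 19.3%, 25.6% and 28.6% under DMSO and 7.51%, 13.5% and 17.4% under E7107, without overlap, while its Y36C medians were 20.4% and 22.8%. MRPS21 is the counterpart of a bacterial small-subunit protein. Its intron 1, in the 5′ UTR (chr1:150266319-150266754), fell from a median of 26% (24.2% to 30.2%) to 16.6% (15.4% to 18.2%) in WT. In Y36C it rose from 29.7% (23.7% to 30.5%) to 39.3% (34.9% to 44.7%). The 3′ boundary carried the opposite changes of -0.73 ± 0.10 (adjusted p = 0.000107) and 0.48 ± 0.11 (adjusted p = 0.0178), while the 5′ boundary passed the test in Y36C (adjusted p = 0.00578) and not in WT (adjusted p = 0.106).

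MRPS25 intron 3 (chr3:15094141-15094886) fell from 13% to 4.6% in WT, without overlap. Its Y36C medians were 15.3% and 23%, with overlap and adjusted p of 0.0907 and 0.166 at the 2 boundaries. MRPL24 intron 1 (chr1:156708557-156710803) fell from 8.8% to 3.05% in WT. In Y36C it had medians of 8.02% and 10.2% without overlap, and neither boundary passed the test (adjusted p = 0.234 and 0.0988). MRPS31 intron 5 (chr13:41323418-41328154) had 6.98%, 14% and 16% and then 0%, 1.62% and 9.77% in WT, an overlap. Its boundaries passed the test in WT with adjusted p of 0.0218 and 0.035. With an offset of 0.1 in place of 1, the 3′ boundary of MRPS31 intron 5 and the 5′ boundary of MRPS5 intron 7 missed the threshold (adjusted p = 0.0711 and 0.107). Unnamed annotated genes lie on the same strand at MRPS5 intron 7 and MRPS25 intron 3, NR2C2 lies opposite the latter, and their part was not tested.

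The family has 3 introns that begin with GC in place of GT. MRPL24 intron 4 fell at both boundaries in WT, from a mean of 3.05% to 0.848%, and rose at both in Y36C, from 2.67% to 6.01%. The other two, MRPL2 intron 3 and MRPL28 intron 3, changed from 2.52% to 3.37% and from 5.18% to 7.43% in WT, and none of their boundaries passed the test in either genotype.

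Introns were also grouped by calls at both ends. In 165 introns (49.5%) both boundaries increased in WT and not both in Y36C, in 19 (5.71%) both increased in both genotypes, in 9 (2.70%) in Y36C and not both in WT, and in 140 (42.0%) in neither. Over all 92081 principal introns the shares were 33.4%, 2.95%, 2.28% and 61.4% in that order. The 19 shared introns had a median length of 152 bases and a median GC content of 59.6%. The 9 had 436 bases and 55.1% GC, the 165 had 1128 bases and 45.2%, and the 140 had 2524 bases and 41.3%. Over all principal introns the 4 classes had median lengths of 241.5, 362.5, 1060 and 1768.5 bases and median GC contents of 59.3%, 57.6%, 43.8% and 43.2% in the same order. Grouping by both ends leaves out introns in which 1 boundary passed the test.

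Short and GC-rich introns of the family changed most. In WT cells the median change was 9.82 percentage points in 45 introns under 200 bases and 0.708 points in 54 introns of 5000 bases or more. For all introns these medians were 6.82 and 3.64. By composition, the median WT change was 2.24 points in 110 introns under 40% GC and 13.4 points in 39 introns with 60% GC or more, where all introns gave 5.34 and 6.15. In Y36C cells the medians of the same 2 classes of the family were 0.110 and 1.23 points, and of all introns 0.217 and 2.16. Across the 333 introns the rank correlation of GC content with the change was 0.331 in WT and 0.345 in Y36C, and of length -0.317 and -0.301. Across all introns the 4 values were -0.0256, 0.270, -0.0826 and -0.234. These describe introns that share genes and libraries, and the introns with 60% GC or more had a median length of 127 bases, against 2284 bases for those under 40% GC.

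**Figure D4:**
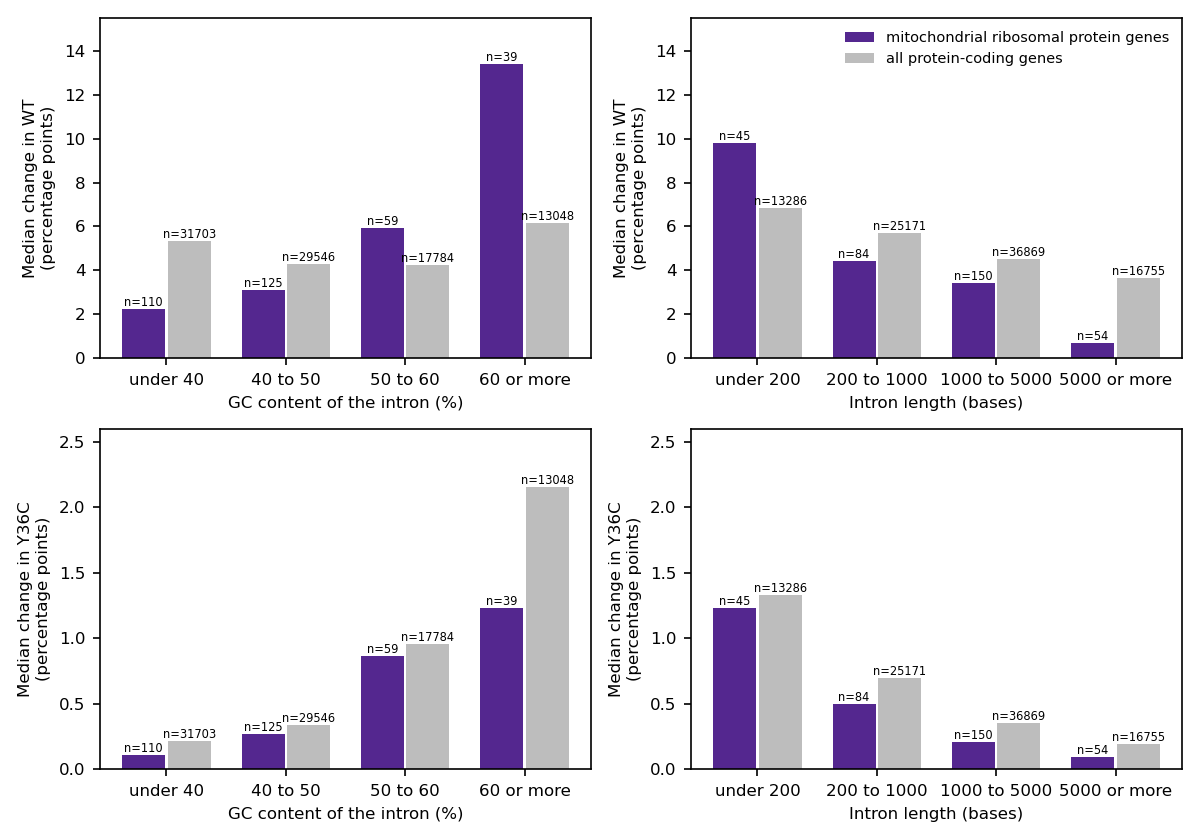
Median change in retention with E7107 in percentage points (vertical axes start at 0) for introns grouped by GC content (left) and length (right), in WT (top) and Y36C cells (bottom). Purple bars are introns of the 78 genes and grey bars all principal introns, with the number of introns above each bar, and the purple bars in WT rise from 2.24 to 13.4 points with GC content while the grey bars range from 4.26 to 6.15.

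Exon skipping was counted in both genotypes. Among junctions that pass over at least 1 annotated exon, 51 of 466 increased in WT cells and 56 of 440 in Y36C cells. These are 10.9% and 12.7% of the family, beside 7.49% and 7.77% of all such junctions tested. Decreases numbered 61 and 25, or 13.1% and 5.68%, beside 10.6% and 3.29% of all. Over every spliced row of the family, in WT cells 120 of 2341 increased (5.13%) and 508 decreased (21.7%), where 4.06% and 19% of all spliced rows did. In Y36C cells 117 of 2372 increased (4.93%) and 179 decreased (7.55%), beside 3.11% and 5.5% of all spliced rows. The interaction was positive for 450 of 2744 spliced rows (16.4%) and negative for 125 (4.56%), beside 13.2% and 3.68% of all. Its sign does not give the size of the effect, and a spliced row that fell less with E7107 in Y36C cells counts as positive. A rise in retention lowers the spliced rows of the same site by construction. Counting only junctions that leave out an exon of the principal transcript, 45 of 320 tested increased in WT, in 30 genes, and 55 of 277 in Y36C, in 36 genes, with median rises of 2.52 and 2.75 percentage points. Among these junctions 8 decreased in WT cells and 0 in Y36C cells. The share of such junctions over all genes was not computed. Of all skipping junctions of the family, 4 rose by at least 10 points in WT cells and 9 in Y36C cells, or 0.858% and 2.05%, below the 2.48% and 2.58% of all such junctions. By the interaction term, 86 of 517 skipping junctions had a higher signed change in Y36C than in WT cells and 39 a lower one. These are 16.6% and 7.54%, beside 10.7% and 4.89% of all. Of the 86 and the 39, 44 and 25 leave out an exon of the principal transcript.

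MRPS10, a small-subunit protein of the ribosome's head, had the largest rise in Y36C cells, at the junction over its 73-base exon 3 (exon chr6:42181858-42181930, minus strand). Measured at the donor of exon 2, the junction had 14%, 17.3% and 22% in WT DMSO and 19.6%, 28.2% and 32.1% in WT E7107. In Y36C it had 34%, 35.3% and 38.8% under DMSO and 56.2%, 59.7% and 65.5% under E7107. Y36C lay above WT without overlap under both treatments, and the treated WT samples overlapped the untreated. The change was 0.53 ± 0.15 in WT (adjusted p = 0.0144), 1.00 ± 0.09 in Y36C (adjusted p = 5.43e-05) and 0.47 ± 0.16 for the interaction (adjusted p = 0.0367).

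This exon was also the site of every member row that differed between the genotypes under DMSO. The skipping junction was higher in Y36C by 0.93 ± 0.12 in log odds at the donor (adjusted p = 0.0256) and by 0.93 ± 0.13 at the acceptor (adjusted p = 0.0354). The junction from exon 3 to exon 4 was lower, with a median of 81.9% in WT cells and 63.4% in Y36C cells (adjusted p = 0.0428). At the junction over exon 3 this is 1 of 400 skipping junctions (0.25%), beside 0.0294% of all that were higher and 0.0167% that were lower. Over spliced rows it is 2 higher (0.0867%) and 1 lower (0.0434%), beside 0.0197% and 0.0171% of all spliced rows. These 3 rows belong to 2 junctions that share sites and reads, and with an offset of 0.1 their adjusted p were 0.361, 0.383 and 0.517. No boundary row of the family differed between genotypes under DMSO by limma, and among all 228360 boundary rows 0.0258% were higher and 0.0171% lower in Y36C. Without adjustment, 52 of 784 rows of the family had a limma p under 0.05. The share of all rows by that measure is not given here, so this count cannot be read as a trait of the family. The exon is shown in capitals with 30 bases of each neighbouring intron in lower case, followed by exon 2 of MRPL17, described next.
MRPS10 exon 3, chr6:42181828-42181960: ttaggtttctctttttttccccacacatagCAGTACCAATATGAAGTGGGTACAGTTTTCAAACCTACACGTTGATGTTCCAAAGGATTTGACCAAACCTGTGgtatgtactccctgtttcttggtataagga
MRPL17 exon 2, chr11:6703948-6704076: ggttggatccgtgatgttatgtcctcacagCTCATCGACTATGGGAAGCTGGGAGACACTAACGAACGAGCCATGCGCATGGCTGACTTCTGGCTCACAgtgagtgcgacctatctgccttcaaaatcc
The MRPS10 exon is 73 bases long, which leaves a remainder of 1 when divided by 3, and the MRPL17 exon is 69 bases, a multiple of 3.

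MRPL17 exon 2 joins the retention values given above. Its skipping junction went from 0.966%, 1.44% and 2.4% to 3.49%, 4.1% and 4.66% in WT and from 0.941%, 1.78% and 2.6% to 12.1%, 13.6% and 18.5% in Y36C, without overlap in either. Retention at the same donor averaged 65.2% in WT E7107 and 20.1% in Y36C E7107, and all rows of a site share 100%. As a share of the spliced reads alone, skipping was 11.7% ± 1.43 in WT E7107 and 17.6% ± 2.81 in Y36C E7107, beside 1.63% and 1.94% under DMSO. The interaction of the PSI was 1.11 ± 0.15 (adjusted p = 5.55e-06), and the share of spliced reads was not tested.

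MRPL55 exon 2, which is 67 bases long, needs the same view. Its skipping junction fell in WT from 25.5%, 29.7% and 33.6% to 7.5%, 11.9% and 15.1% and rose in Y36C from 27.1%, 31% and 33.3% to 36.3%, 41.5% and 46.7%. Retention at the same acceptor rose from 24.8% to 65.9% in WT. Of spliced reads, skipping made up 39.1% ± 3.62 and 33.3% ± 5.2 in WT and 39.2% ± 3.88 and 51.9% ± 5.02 in Y36C, DMSO first. The Y36C call had an adjusted p of 0.00954, and of 0.235 with an offset of 0.1.

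MRPL48 exons 2 and 3 were left out together in Y36C cells, with 0.787%, 2.34% and 3.55% under DMSO and 17.3%, 19.4% and 23.9% under E7107. In WT cells the medians were 2.35% and 1.08%, and the interaction was 2.69 ± 0.31 (adjusted p = 4.56e-07). MRPL48 was also among the 5 genes of lowest retention. MRPL2, the counterpart of a bacterial protein at the peptidyl transferase centre, had a rise over exon 6 in both genotypes, from 3.07% to 6.32% in WT and from 4.68% (3.7% to 7.23%) to 20.1% (17.5% to 22.7%) in Y36C. A longer MRPL2 junction over exons 3 to 6 rose from 11.4% to 21.8% in WT and from 7.68% to 12.8% in Y36C.

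MRPS18C exon 3 rose in Y36C from 7.46% to 22% and had WT medians of 11.2% and 13.6% (adjusted p = 0.5). MRPL33 exon 3 was skipped often in all groups, at medians of 47.6% and 52.6% for WT cells and 47.3% and 60.4% for Y36C cells, and its Y36C call was lost with an offset of 0.1 (adjusted p = 0.134). MRPS28 exon 2 went from 5.86% to 10.8% in WT and from 5.09% to 17.5% in Y36C.

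In WT cells other exons led. MRPS30 exon 3, of 106 bases, had a skipping junction listed at 0% in all 12 DMSO samples. It reached 9.2%, 14.8% and 19.4% in WT E7107 and 0%, 0.363% and 1.95% in Y36C E7107, an interaction of -2.49 ± 0.21 (adjusted p = 3.66e-09). MRPL15 exons 3 and 4 had a median of 0% under DMSO in both genotypes, 11.3% (4.92% to 27%) in WT E7107 and 0.175% in Y36C E7107. MRPL51 exon 2, of 111 bases, went from 0% to 10.4% (9.85% to 11.5%) in WT and from 0.117% to 3.55% (2.37% to 5.24%) in Y36C, without overlap in both. MRPS35 exons 6 and 7 went from 0% to 10.3% in WT (6.29% to 12.8%), with Y36C medians of 0.407% and 1.27%. The depth behind a listed 0% is unknown.

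The remaining 2 of the 8 largest WT rises pass over no exon of the principal transcript. They are the regular junctions of MRPS31 intron 5 and MRPL24 intron 1, which span an exon of another transcript. Their WT medians went from 85.4% to 98.3% and from 87.8% to 96%, and mean retention at the same donors from 13.3% to 3.16% and from 11.5% to 3.92%.

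**Figure D5:**
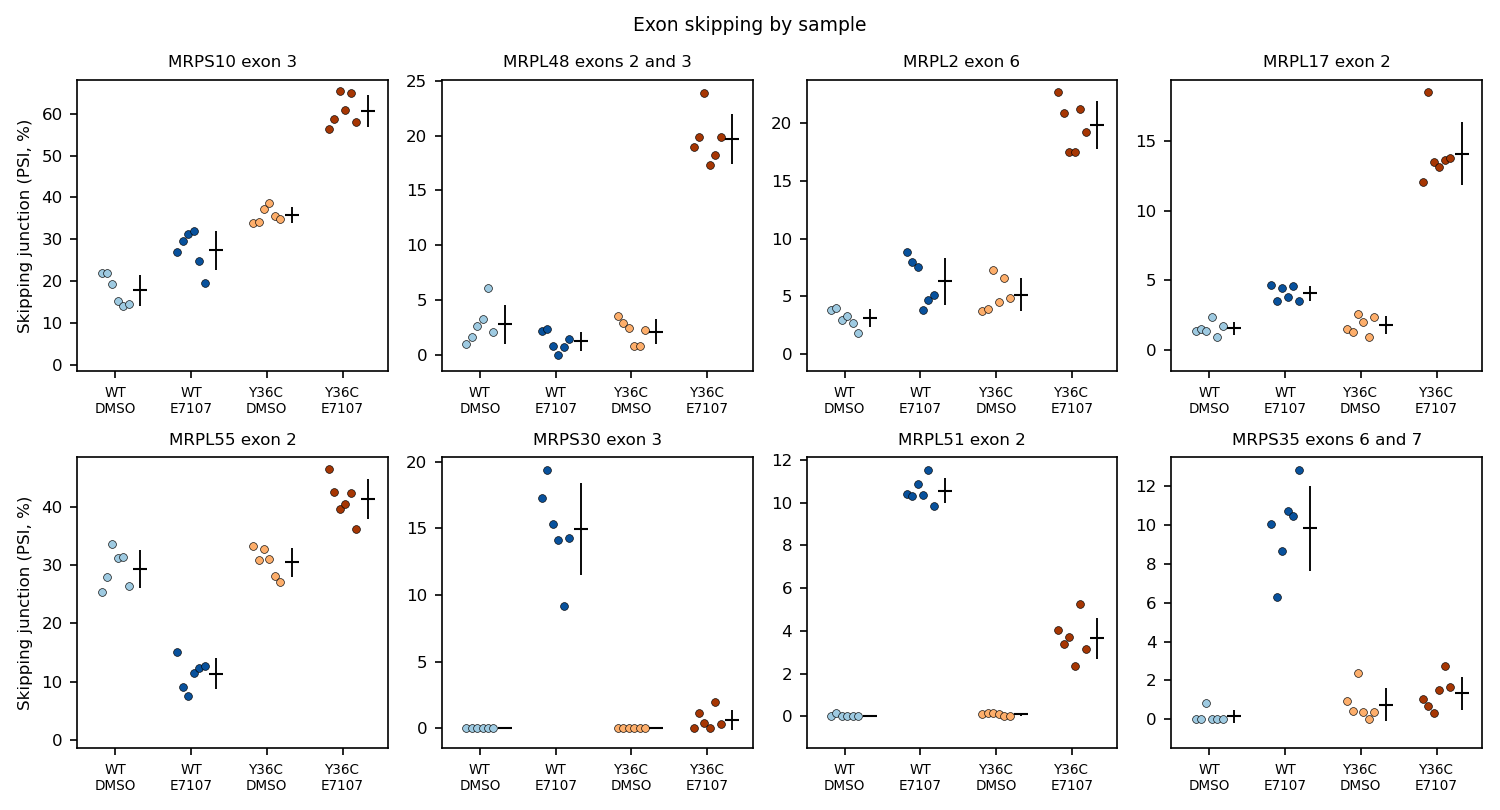
Skipping junction PSI in percent (vertical axis, its own scale in each panel) for 8 exons or exon pairs, 1 point per sample and a bar for the mean and SD of 6 samples in each group. MRPS10, MRPL48, MRPL2, MRPL17 and MRPL55 are highest in Y36C E7107, and MRPS30, MRPL51 and MRPS35 in WT E7107.

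Other genes of mitochondrial translation were listed in the same way, and their counts stand beside the 68.9% of all genes that rose in WT cells and the 43.4% that rose in Y36C cells. Of 12 translation factors, such as the elongation factor TUFM, 10 rose in WT (83.3%) and 4 in Y36C (33.3%), MTFMT and MTRF1 did not pass the test in WT, and their median gene means were 1.93% and 9.28% in WT and 2.19% and 3.42% in Y36C. Of 18 tested assembly factors of the mitochondrial ribosome, 15 rose in WT (83.3%) and 10 in Y36C (55.6%), and the WT medians were 3.21% and 17.4%. The 2 that fell in WT on the log-odds scale were RBFA, which went from 8.30% to 4.65%, and TFB1M, whose mean PSI was 3.03% and then 3.90%. A list of 6 ribosome proteins that carry other names, of which MRPL58 is itself a member by its present name, had 5 increases and 1 decrease (DAP3) in WT and 5 increases in Y36C. The cytosolic ribosome showed 77 of 79 genes up in WT and 38 up and 2 down in Y36C. Their medians went from 0.717% to 5.04% in WT cells and from 0.638% to 0.858% in Y36C cells. For complex I of the respiratory chain, which contains subunits made by the mitochondrial ribosome, 24 of 38 genes rose and 4 fell in WT, 9 rose in Y36C, and the WT medians were 1.27% and 2.05%. No difference between these lists was tested.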

How the data were processed

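RNA selected for poly(A) from 24 samples of HCT116 cells, 6 in each of 4 groups taken from the sample labels, was sequenced by the authors, aligned with STAR to hg19 and summarised as junction usage. The deposited files give PSI in percent, each row relative to all rows that share a splice site. Read counts are not used here, so no interval for a single PSI could be given. A site whose rows sum to 0 was treated as without reads, and 1854 rows on the mitochondrial chromosome or without strand were left out of 1830076.

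Genes and principal transcripts came from GENCODE 44 lifted to GRCh37, where 99.1% of 130093 annotated introns listed as junctions read GT to AG. Intron coordinates are 1-based. Rows with reads in all samples compared were tested with limma 3.58.1 (R 4.3.3) on natural-log odds, after 1 percentage point was added to PSI and to its complement, with Benjamini–Hochberg adjustment over all rows of the files, and 12 samples for each 2-group comparison and 24 for the interaction. Gene means, tested over 10380 genes, needed at least 2 principal boundaries. The step was tested on simulated data. The members and lists were chosen with earlier results of these data known.

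Named items were fixed by rule: the 8 introns with the largest change in each genotype, the 5 with the smallest in WT, the 8 skipping junctions with the largest called rise in each genotype, the 5 boundaries with the largest called interaction in each direction, all rows called under DMSO, and the 5 highest and 5 lowest genes. The introns that begin with GC, and the genes named with a changed sign or count, were added after their values were seen. Alternatives were other offsets, PSI itself as the response, a replicate block, a filter on PSI above 0, a minimum change of 10 points and other sets of boundaries.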

Additional observations from a re-analysis of the deposited data

Results flagged for a closer look

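In 11 of 140 groups of 6 samples examined for the named introns and junctions (7.86%), 1 sample stood apart from the other 5. The test looks for a gap at the end of the range. By chance it marks about 5% of groups when values vary continuously. Groups with values at 0% do not meet that condition, so the 7.86% cannot be set against the 5%. The separate samples were at 3.09% for MRPL34 intron 1 and 38.4% for MRPS24 intron 1 in Y36C E7107, at 3.80% for MRPL44 intron 1 and 23.7% for MRPS21 intron 1 in Y36C DMSO, and at 21.6% for MRPS7 intron 1 in WT E7107. Among skipping junctions they were at 0.424% for MRPL15 exons 3 and 4, 0.131% for MRPL51 exon 2 and 0.858% for MRPS35 exons 6 and 7 in WT DMSO, at 88.5% for the MRPS31 junction in WT E7107, at 95.6% for the MRPL24 junction in Y36C DMSO and at 18.5% for MRPL17 exon 2 in Y36C E7107. In these WT DMSO groups the other 5 samples were at 0%, where any value above 0% is marked.

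By the interaction term in limma, the signed change with E7107 was lower in Y36C cells at 365 boundary rows and higher at 36. It was lower and higher at 39 and 86 exon-skipping junctions, and in the means of 60 and 5 genes. The largest negative interactions in log odds were -5.25 at the 5′ boundary of MRPS30 intron 1, -5.12 and -4.75 at the 3′ boundaries of MRPL44 introns 1 and 3, -4.53 at that of MRPL36 intron 1 and -4.50 at that of MRPL55 intron 4. The largest positive ones were 2.36 and 2.07 at the 5′ and 3′ boundaries of MRPS31 intron 5, 1.98 at the 5′ boundary of MRPL4 intron 8, and 1.95 and 1.87 at boundaries of MRPL52 and MRPL35 that lie outside the principal transcripts.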

How the results depend on the processing

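With a minimum change of 10 percentage points, 186 boundary rows increased in WT and 32 in Y36C, and 4 and 0 decreased. Rows with a lower signed change in Y36C than in WT cells numbered 159. The skipping junctions that increased numbered 4 and 9, and the genes with higher retention 26 and 1. This alternative removes small changes by construction. At that size the family's shares of increases lay below those of all boundary rows, skipping junctions and genes. The MRPS24 gene mean under DMSO passed the test in no alternative, and with PSI as the response 1 other member gene was lower in Y36C under DMSO. With an offset of 0.1 the decreases in WT numbered 14 of 766 rows, the increases in Y36C 58 of 787 and the decreases in Y36C 1. With PSI above 0 required in a group the decreases in Y36C numbered 5. The cause was not tested. The shares of all boundary rows under these settings are not given here, so these shifts cannot be read as particular to the family. With an offset of 0.1, gene means rose in Y36C cells in 38 of 78 member genes, beside 3744 of all 10380 genes. Mean retention moved with the set of boundaries. With all boundary rows in the spans it was 7.81% and 16.8% in WT and 7.70% and 9.37% in Y36C, DMSO first, averaged over genes 3.04%, 15.4%, 3.00% and 4.67%, and without introns overlapped on the same strand 2.27% in WT DMSO, 2.18% in Y36C DMSO and 3.47% in Y36C E7107. The order of the groups was the same in each. No boundary row differed under DMSO in any alternative tried with limma.

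Samples of the same number did not deviate together, with correlations between -0.00548 and 0.00586 over 18 pairs, 3 of which matched best with their own number. With the replicate block, decreases in Y36C numbered 1 and increases 414 of 766 rows in WT and 72 of 787 in Y36C. The shares of all boundary rows with the block are not given here. Of 71 tests of named items 5 missed the threshold, and the 3 MRPS10 rows under DMSO had adjusted p of 0.542, 0.573 and 0.536. No named item changed direction under any alternative. Depth is unknown for every PSI, and WT E7107 had reads at the fewest splice sites.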
